A study of Homo sapiens with 6 samples.

Results

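The E2F transcription factor family consists here of 10 genes, the E2F genes E2F1 to E2F8 and the DP genes TFDP1 and TFDP2. The members are matched by their Ensembl gene identifiers in the gene-level tables, which hold 58395 genes, and all 10 are among the 15566 genes with enough counts to be tested. Expression is measured by RNA sequencing of HCT116, an established human colorectal carcinoma cell line. The 3 shControl libraries come from cells that carry a lentiviral non-target short hairpin RNA, and the 3 shSTBD1 libraries from cells that carry a lentiviral hairpin against STBD1, a glycogen-binding protein proposed to act as an adaptor for the autophagy of glycogen. The controls thus also carry a hairpin vector, and the methods describe drug selection after infection with puromycin or G418 without naming the drug for each construct. The groups are described only by the cell line and the hairpin, and the study treats the 3 libraries of each group as biological replicates. Where replicates share a single infected culture, the p values measure only the spread between these libraries. The comparison asks how the transcripts of the family and of its pathway differ between the shSTBD1 and the shControl libraries. The methods list a single hairpin sequence against STBD1, so an effect of STBD1 depletion cannot be told apart from another effect of that hairpin.

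E2F proteins bind the promoters of genes needed for the entry into S phase. Most of them bind DNA as a dimer with a DP protein, and the pocket proteins RB1, RBL1 (p107) and RBL2 (p130) hold these dimers inactive until cyclin-dependent kinases phosphorylate the pocket protein. E2F1, E2F2 and E2F3 are known as the activators, E2F4 and E2F5 as the partners of the pocket proteins in repression, E2F6 as a repressor that works with Polycomb proteins, and E2F7 and E2F8 as atypical repressors that need no DP partner. The promoters of several family members themselves hold E2F motifs, and the loss of RB control over the family is a common feature of cancer cells.

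The sequences upstream of the called members E2F1 and E2F3 are shown first, because both genes are known to be transcribed under E2F control. They are taken from RefSeq on GRCh38.p14, 5′ to 3′ on the strand of the gene, and end at the last base before the transcription start. Capitals mark a match on either strand to the 4 letter strings TTTCGCGC, TTTGGCGC, TTTCCCGC and TTTGCCGC, which are forms of the E2F consensus. E2F1 lies on the minus strand of chromosome 20 (hg38, 33675477 to 33686385), with the identifier ENSG00000101412, and the stretch before its start is chr20:33686386-33686535. E2F3 lies on the plus strand of chromosome 6 (20401879 to 20493714) with the identifier ENSG00000112242, and its upstream and its downstream start are preceded by chr6:20401729-20401878 and chr6:20403464-20403613.
E2F1: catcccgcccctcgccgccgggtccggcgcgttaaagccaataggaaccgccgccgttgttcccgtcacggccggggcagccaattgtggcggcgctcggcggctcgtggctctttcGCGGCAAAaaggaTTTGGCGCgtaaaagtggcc
E2F3, upstream start: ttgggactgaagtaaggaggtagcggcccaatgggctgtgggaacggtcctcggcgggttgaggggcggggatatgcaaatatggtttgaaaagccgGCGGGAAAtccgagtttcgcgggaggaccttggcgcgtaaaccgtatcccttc
E2F3, downstream start: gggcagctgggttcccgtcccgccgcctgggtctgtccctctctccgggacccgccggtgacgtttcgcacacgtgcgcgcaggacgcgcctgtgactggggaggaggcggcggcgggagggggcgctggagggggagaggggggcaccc
The E2F1 stretch holds 2 matches, at bases 33 to 26 and 20 to 13 before the start, and the matches do not overlap. The stretch before the upstream E2F3 start holds 1 match, at bases 53 to 46, and the stretch before the downstream start holds none. Of the 8 members with an entry in the promoter table (E2F5 and E2F8 have none), 4 hold a match within 250 bases before to 50 after a start. Over all 27305 gene symbols in the table, the share with a match is 3.99%. The other two are E2F2 (minus strand, chr1:23531257-23531286) and TFDP1 (plus strand, chr13:113584622-113584651), whose matches are shown with the bases around them.
E2F2: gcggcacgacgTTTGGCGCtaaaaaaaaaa
TFDP1: gggcgccgaagGCGCGAAAaggcgcgcagg
A match describes the letters of the window and is not a measured binding site. Of these 4 genes, E2F1 is higher in the shSTBD1 libraries, E2F3 is lower, and E2F2 and TFDP1 do not pass the test (adjusted p under 0.05).

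The libraries hold 17689097 to 21668274 expected counts, the read counts that RSEM assigns to genes. The targeted gene STBD1 has 16.2, 15.7 and 14.4 CPM (counts relative to the scaled total of the library) in the shControl libraries and 11.6, 9.06 and 9.18 in the shSTBD1 libraries, so that its count dropped by 35.8% (adjusted p = 0.00029, edgeR quasi-likelihood test). STBD1 is called in 18 of the 20 alternatives given below, but not in the 2 limma fits (log2 fold change −0.54 and −0.65, adjusted p = 0.065 and 0.067). shControl 1 stands apart within its group: the chi-square per degree of freedom over genes is 6.26 against shControl 2 and 5.00 against shControl 3, and 1.64 to 2.02 for the other pairs within a group. The epithelial markers EPCAM, KRT8, KRT18 and CDH1 are abundant and the intestinal factor CDX2 is detected at 12.6 to 16.4 CPM, whereas CDX1 is at 0 and VIL1 at no more than 0.312 CPM. The leukocyte genes PTPRC and CD3E are at 0 in all 6 libraries, and the macrophage-associated CD68 has 8.38 to 13.9 CPM. CD68 (log2 fold change 0.47), KRT8 (0.22), KRT18 (0.20) and CDH1 (0.29) are called higher in the shSTBD1 libraries, and their part in the results was not tested.

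The family spans a wide range of levels in HCT116 cells. Levels between genes are given as TPM, which divides by transcript length before scaling each library to the same total. TFDP1, the main dimer partner, is the most abundant member at 149 ± 2.57 TPM (SD, n = 3) in the shControl libraries, followed by E2F4 at 104 ± 10.3 TPM. TFDP2 has 27.9 ± 2.75 TPM, E2F6 23.6 ± 0.813, E2F1 19.5 ± 1.06 and E2F3 19.2 ± 0.333. E2F8, E2F2, E2F5 and E2F7 follow at 14.0 ± 0.479, 13.8 ± 0.958, 9.77 ± 3.14 and 8.33 ± 0.514 TPM. The ranges of neighbours in this order overlap for E2F1 and E2F3, and for each neighbouring pair from E2F8 to E2F7, so these neighbours do not differ beyond their spread. The shSTBD1 libraries keep the same order down to E2F2, with E2F7 and E2F5 exchanged at the bottom. There the overlapping neighbours are E2F6 with E2F1 and E2F7 with E2F5, and E2F1 no longer overlaps E2F3.

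Of the 10 members, 1 rises (E2F1) and 1 falls (E2F3) in the shSTBD1 libraries, and both are activators. Over all 15566 tested genes, 15.8% are called, 8.22% higher and 7.54% lower, so 2 calls among 10 members are close to the background. The log2 fold change is positive for 4 members and negative for 6, and none exceeds 0.27 in size. The CPM of the groups does not overlap for 4 members (E2F1, E2F3, E2F8 and TFDP1), against 33.6% of all tested genes. An exact permutation test over the 6 libraries gives p = 0.1 for each of these 4, the smallest value that 3 against 3 libraries allow. Any gene whose groups do not overlap has this value, so the test adds nothing to the separation itself. Bulk libraries cannot tell fewer expressing cells from less RNA per cell.

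E2F1, the activator that is also known for driving apoptosis genes, has 36.6, 37.5 and 39.5 CPM in the shControl libraries and 47.3, 48.6 and 40.5 CPM in the shSTBD1 libraries. All shSTBD1 libraries lie above all shControl libraries, but shSTBD1 3 sits just above the highest control while the other two stand well clear. The means are 37.9 ± 1.50 and 45.5 ± 4.33 CPM (SD, n = 3). E2F1 is thus 20.3% higher (log2 fold change 0.27, SE 0.063, 95% interval 0.13 to 0.40, adjusted p = 0.0089, edgeR). The coefficient of variation among shSTBD1 libraries is 9.51%, above the counting error of 3.49% at a mean count of 819. E2F1 is also higher per length, at 18.3, 19.7 and 20.4 TPM against 24.2, 24.4 and 20.4 TPM, where shSTBD1 3 and shControl 3 differ only in the last digit (20.44 and 20.40). Without shSTBD1 1 the adjusted p is 0.053 (log2 fold change 0.24), and without shSTBD1 2 it is 0.072 (0.21). Without shControl 1, the library that stands apart, E2F1 is called with a log2 fold change of 0.24 (adjusted p = 0.010).

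E2F3, the activator often gained or overexpressed in tumours, has 72.6, 71.1 and 70.5 CPM in the shControl libraries and 63.7, 67.5 and 63.1 CPM in the shSTBD1 libraries. The groups do not overlap, and shSTBD1 2 is the knockdown library nearest to the controls. The means are 71.4 ± 1.07 and 64.8 ± 2.42 CPM, and E2F3 fell by 9.24% (log2 fold change −0.14, SE 0.041, 95% interval −0.23 to −0.053, adjusted p = 0.028, edgeR). Per length, the level is 19.1, 19.5 and 18.9 TPM against 16.8, 17.8 and 16.7 TPM. The call is close to the threshold. The adjusted p is 0.068 with DESeq2, 0.052 without shControl 2, 0.054 without shControl 3, 0.094 without shSTBD1 1 and 0.13 without shSTBD1 3, with log2 fold changes from −0.15 to −0.12 in all of these. Without shControl 1 it is called (−0.13, adjusted p = 0.037).

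The third activator, E2F2, has 55.3 to 57.9 CPM in the shControl libraries and 52.6 to 55.8 CPM in the shSTBD1 libraries. The groups overlap and the log2 fold change is −0.062 (95% interval −0.15 to 0.030, adjusted p = 0.37, edgeR). Of the 3 activators, 1 is thus called higher and 1 lower, and E2F2 is not called.

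The ratio of the 2 called members within a library does not depend on the scaling between libraries. The ratio of E2F1 to E2F3 counts is 0.504, 0.527 and 0.560 in the shControl libraries and 0.742, 0.720 and 0.643 in the shSTBD1 libraries. The means are 0.530 ± 0.028 and 0.702 ± 0.052. This ratio was chosen after the values had been seen, and its separation follows from the values of both genes given above, so it is a description with no test.

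The 3 genes outside the family whose log2 CPM follows E2F1 most closely over the 6 libraries are SLC45A3, KCMF1 and PSMB7, with Pearson r of 0.997, 0.994 and 0.988. For E2F3 they are KCNQ3, DGCR8 and C4orf46, with r of 0.997, 0.997 and 0.996. SLC45A3, KCMF1 and KCNQ3 are not called themselves (adjusted p = 0.33, 0.12 and 0.16, edgeR). PSMB7, DGCR8 and C4orf46 are called (adjusted p = 0.041, 0.033 and 0.0041, edgeR). These correlations describe 6 points that share the division into groups. An r above 0.95 is seen for 70 tested genes with E2F1 and for 133 with E2F3.

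E2F4 (chromosome 16, plus strand, 67192155 to 67198918), the most abundant E2F and the main E2F bound by RBL2 in resting cells, has 122, 137 and 136 CPM in the shControl libraries and 123, 130 and 128 CPM in the shSTBD1 libraries. The lowest value of all belongs to shControl 1, the library that stands apart, and the groups overlap. The log2 fold change is −0.049 (95% interval −0.14 to 0.042, adjusted p = 0.49, edgeR). Without shControl 1 it is −0.11 and is called (adjusted p = 0.024), so this library decides the call. E2F5, the close relative of E2F4, is the member with the fewest counts, 271 to 356 per library. It has 14.1, 17.1 and 16.3 CPM against 15.1, 13.9 and 13.7 CPM, with a log2 fold change of −0.16 (95% interval −0.33 to 0.021, adjusted p = 0.22, edgeR), the widest interval of the family. Its effective length ranges from 1496 to 2447 bases over the 6 libraries, and its TPM is 7.40, 13.3 and 8.58 against 8.28, 6.37 and 7.05. With effective-length offsets its log2 fold change is −0.40 (adjusted p = 0.30, edgeR), and shControl 2 has both the shortest effective length and the highest TPM. E2F5 overlaps RBIS on the opposite strand, which has 667 to 967 counts per library, and the strand setting of the counting is not given in the sources used here.

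E2F6, the repressor found in a variant Polycomb complex, has 38.5, 37.1 and 37.1 CPM in the shControl libraries and 39.1, 35.3 and 37.7 CPM in the shSTBD1 libraries. Its log2 fold change is −0.0091 (95% interval −0.12 to 0.10, adjusted p = 0.94, edgeR), and the groups overlap. With effective-length offsets the value is 0.11 (adjusted p = 0.44).

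The atypical repressors E2F7 and E2F8, which are themselves known E2F targets and dampen E2F1 transcription, do not pass the test. E2F7 has 34.8, 33.5 and 32.8 CPM against 33.8, 35.7 and 35.7 CPM, with a log2 fold change of 0.058 (95% interval −0.052 to 0.17, adjusted p = 0.50, edgeR). E2F8 has 34.9, 36.2 and 36.3 CPM against 36.9, 38.8 and 36.6 CPM, with a log2 fold change of 0.066 (95% interval −0.041 to 0.17, adjusted p = 0.42, edgeR). The direction of E2F7 depends on the unit, with a mean of 8.33 TPM in the shControl and 8.12 TPM in the shSTBD1 libraries and a log2 fold change of −0.013 with effective-length offsets. The E2F7 groups overlap, whereas the E2F8 groups do not, by a narrow margin between shControl 3 and shSTBD1 3.

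Among the DP partners, TFDP1 (chromosome 13, plus strand, 113584721 to 113641473) is the member measured most precisely, with 3831 to 4977 counts per library. It has 216, 217 and 216 CPM in the shControl libraries and 228, 229 and 222 CPM in the shSTBD1 libraries, and the groups do not overlap. The log2 fold change is 0.065 (SE 0.030, 95% interval 0.00050 to 0.13) and does not pass the test (adjusted p = 0.16, edgeR). In TPM the order of the groups is the opposite, at 146.2, 151 and 149 against 145.9, 145 and 142, again without overlap. RSEM's effective length, the abundance-weighted mean length of the transcripts of a gene less the fragment length, is 1644 to 1679 bases for TFDP1 in the shControl libraries and 1757 to 1774 bases in the shSTBD1 libraries. The higher count is thus divided by a greater length. The third DP gene, TFDP3, is at 0 in all 6 libraries.

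TFDP2 (chromosome 3, minus strand, 141944428 to 142149544), the less abundant DP gene, shows the clearest contrast between the count and the level per length. Its counts do not separate the groups, with 68.4, 65.9 and 63.6 CPM in the shControl libraries and 63.7, 64.6 and 67.8 CPM in the shSTBD1 libraries (log2 fold change −0.013, 95% interval −0.10 to 0.078, adjusted p = 0.88, edgeR). Its effective length is 3082, 2620 and 2464 bases in the shControl libraries and 1915, 2206 and 2203 bases in the shSTBD1 libraries, so all 3 knockdown libraries are below all controls. Its TPM is accordingly 24.7, 29.4 and 29.6 against 37.8, 32.7 and 34.6, with no overlap. With effective-length offsets the log2 fold change of TFDP2 is 0.35 (adjusted p = 0.036, edgeR), and limma on log2(TPM + 1) gives 0.32 (adjusted p = 0.12). The log2 difference of the mean effective length is −0.37, and 236 of the 15566 tested genes (1.52%) have a drop at least as large. TFDP2 is also the member with the most quantified transcripts, 24, against 1 for E2F1 and 3 for E2F3, whose effective lengths vary over the 6 libraries by factors of only 1.00 and 1.02. The effective lengths of the groups do not overlap for 4 members (E2F4, E2F6, TFDP1 and TFDP2), against 9.55% of all tested genes. Those members have 8 to 24 quantified transcripts. The 9.55% and the 1.52% above also cover genes with 1 transcript, whose effective length differs between libraries only by the fragment length. Groups overlap in such a gene, as in E2F1, so neither share is a like background for these members. Genes with a like number of transcripts were not compared. The TPM of the groups does not overlap for 4 members (E2F1, E2F3, TFDP1 and TFDP2), against 24.4% of all tested genes. The tables analysed hold no separate transcript values, so which TFDP2 transcripts differ was not tested.

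**Figure D1:**
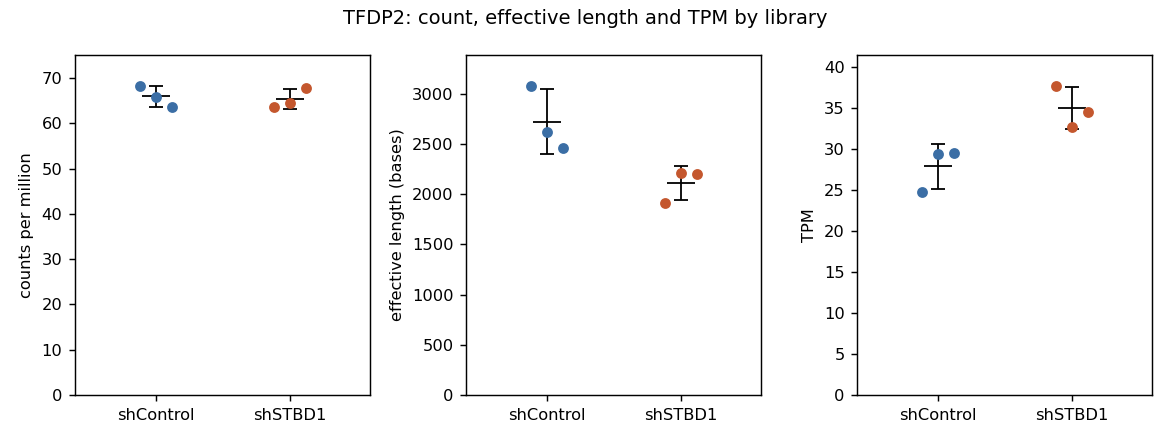
CPM, effective length in bases and TPM of TFDP2 in every library, with mean and SD of the 3 libraries of each group, on axes that start at 0. The groups overlap in counts and separate in effective length (lower in shSTBD1) and in TPM (higher in shSTBD1).

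Expressed as shares of the summed TPM of E2F1 to E2F8, E2F4 makes up 49.1 ± 1.78% in the shControl and 47.0 ± 0.920% in the shSTBD1 libraries (SD, n = 3). E2F1 takes 9.29, 8.73 and 9.47% of the pool in the shControl libraries and 11.7, 11.8 and 10.1% in the shSTBD1 libraries. E2F3 takes 9.69, 8.67 and 8.77% against 8.13, 8.61 and 8.28%. The groups do not overlap for either gene, but for E2F3 the margin between shControl 2 and shSTBD1 2 is narrow beside the shControl SD of 0.558%. The 3 activators together hold 24.7 ± 1.04% and 26.0 ± 0.771%, with overlap. E2F4 and E2F5 hold 53.6 ± 2.50% and 50.5 ± 0.503%, and E2F7 and E2F8 10.5 ± 0.760% and 11.3 ± 0.583%, both with overlap. The pool itself is 213 ± 14.3 TPM in the shControl and 205 ± 2.58 TPM in the shSTBD1 libraries. Of the summed TPM of the DP genes, TFDP1 accounts for 84.2 ± 1.12% and 80.5 ± 1.09% and TFDP2 for the rest, and these groups do not overlap.

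The pathway around the family was followed in 8 lists with 96 genes, of which 90 were tested. In these lists 13 genes rise and 12 fall, 27.8% of those tested, against 15.8% of all tested genes, and genes are called in both directions in 4 of the lists. Among genes with at least 10 counts in every library, the shares are 28.9% and 17.9%. The lists were chosen with earlier results of these data known, so this contrast is a description with no test. The number of called genes is 24 without shControl 1 (16.8% of all tested genes) and 13 without shSTBD1 1 (10.4% of all tested genes). With limma on log2(TPM + 1), 4 list genes (4.44%) are called, MYBL1, CDKN1A and MCM6 (higher) and CCND1 (lower), while the share over all tested genes is 1.88%.

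Among the pocket proteins and the proteins of the DREAM and MuvB complexes, which repress or activate cell cycle genes together with E2F4 or the MYB proteins, 2 of 11 genes rise and 1 falls, with a median log2 fold change of 0.072 against 0.0023 for all tested genes. The pocket proteins themselves do not pass the test. RB1 has 68.0 ± 1.72 CPM in the shControl and 71.8 ± 0.979 CPM in the shSTBD1 libraries (log2 fold change 0.077, adjusted p = 0.20, edgeR). For RBL1 the log2 fold change is 0.098 (adjusted p = 0.29, and −0.022 with effective-length offsets) and for RBL2 it is −0.060 (adjusted p = 0.52). MYBL1, a MYB transcription factor, rises from 14.9 ± 0.783 to 23.0 ± 0.746 CPM (log2 fold change 0.62, adjusted p = 8.8e-06). FOXM1, the factor that drives G2 and mitotic genes with MuvB, falls from 129 ± 5.78 to 110 ± 2.69 CPM (−0.24, adjusted p = 0.00052). With effective-length offsets FOXM1 has −0.23 and is not called (adjusted p = 0.075). MYBL2, the MYB protein of proliferating cells and a classical E2F target, rises (log2 fold change 0.12, adjusted p = 0.037), a call that is lost when any library other than shControl 1 is left out (adjusted p up to 0.16).

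In the list of RB kinases, cyclins and inhibitors, 4 of 14 tested genes rise and 2 fall, with a median log2 fold change of 0.041. CDKN1A, the p53 target p21 that inhibits cyclin-dependent kinases, rises from 263 ± 4.88 to 359 ± 6.13 CPM (log2 fold change 0.45, adjusted p = 6.9e-08, edgeR). CCND1, the cyclin D1 that starts RB phosphorylation, falls from 590 ± 48.9 to 440 ± 8.71 CPM (−0.42, adjusted p = 7.0e-06). CCNE2, a cyclin E gene and E2F target, rises from 19.8 ± 0.290 to 26.0 ± 1.08 CPM (0.39, adjusted p = 0.00038). CDK2, the kinase that cyclin E binds, rises from 129 ± 1.32 to 149 ± 2.92 CPM (0.20, adjusted p = 0.00048). The other two called genes, named after their values were seen, are CCND3, another D cyclin, which is higher (0.18, adjusted p = 0.031), and CDK6, a kinase that D cyclins bind, which is lower (−0.14, adjusted p = 0.041). The calls of CDKN1A, CCND1, CCNE2 and CDK2 hold when any single library is left out, but with effective-length offsets CCNE2 has 0.28 (adjusted p = 0.36).

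Of the 28 tested targets of G1/S and replication, 4 rise, 4 fall and 20 do not pass the test, with a median log2 fold change of −0.017. MCM6, a subunit of the replicative helicase, rises from 129 ± 3.42 to 216 ± 2.24 CPM, the largest change in any of the lists (log2 fold change 0.74, adjusted p = 7.1e-10, edgeR). MCM2, another subunit of the same helicase, is called lower (−0.11, adjusted p = 0.037), as it is in 11 of 20 alternatives. PCNA (0.14, adjusted p = 0.016, edgeR) and CDC6 (0.12, adjusted p = 0.014, edgeR) are called higher, as they are in 15 and 14 of 20 alternatives. RRM1, the large subunit of ribonucleotide reductase, falls from 176 ± 6.94 to 142 ± 3.22 CPM (−0.31, adjusted p = 1.4e-05). With effective-length offsets RRM1 has −0.26 and is not called (adjusted p = 0.087). POLA1, the catalytic subunit of DNA polymerase alpha, falls (−0.16, adjusted p = 0.037), a call that is lost with DESeq2 (adjusted p = 0.059) and without any single library other than shControl 2 (up to 0.11). MCM2, PCNA and CDC6 were named after their values were seen.

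Of the 10 apoptosis genes known as E2F1 targets, 2 rise and 8 do not pass the test, with a median log2 fold change of 0.034. BBC3, the BH3-only protein PUMA, rises from 15.1 ± 1.21 to 18.1 ± 0.912 CPM (log2 fold change 0.26, adjusted p = 0.029, edgeR), and PPP1R13B, the p53 cofactor ASPP1, rises with a log2 fold change of 0.21 (adjusted p = 0.049). Both calls are near the threshold: BBC3 is lost without shControl 1, shControl 2, shSTBD1 1 or shSTBD1 3 (adjusted p up to 0.13), and PPP1R13B without any library other than shControl 2 (adjusted p up to 0.17). DESeq2 calls neither (adjusted p = 0.086 and 0.14), and PPP1R13B is also lost with library size, upper-quartile or GC trend scaling (adjusted p up to 0.054). With effective-length offsets PPP1R13B has 0.017 (adjusted p = 0.95).

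Of the 12 E2F6 partners in the variant Polycomb complex PRC1.6, 1 falls, WDR5, a scaffold of several chromatin complexes (122 ± 3.10 to 111 ± 2.72 CPM, log2 fold change −0.14, adjusted p = 0.014, edgeR). That call is lost without shSTBD1 1 (adjusted p = 0.066) or shSTBD1 3 (0.059), and with effective-length offsets (−0.15, adjusted p = 0.13). The germline genes that E2F6 and this complex keep silent remain near 0: 5 of 6 are too low to be tested, at no more than 0.46 CPM in any library, and STAG3, a meiotic cohesin subunit, has 2.44 to 3.55 CPM with a log2 fold change of 0.064 (adjusted p = 0.87).

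Among 4 genes for the turnover of E2F proteins, CDC20, an activator of the anaphase-promoting complex, rises from 293 ± 3.74 to 320 ± 0.830 CPM (log2 fold change 0.13, adjusted p = 0.0070, edgeR). With effective-length offsets CDC20 has 0.14 and is not called (adjusted p = 0.060). CCNF, the F-box protein cyclin F, falls (−0.12, adjusted p = 0.038), a call lost with DESeq2 (adjusted p = 0.064) and without any library other than shControl 2 (up to 0.18). Of 10 cofactors, 3 fall and none rises at adjusted p below 0.05, with a median log2 fold change of −0.076. The histone acetyltransferases EP300 and CREBBP fall from 115 ± 3.53 to 101 ± 5.64 CPM (−0.20, adjusted p = 0.0038) and from 106 ± 2.84 to 95.3 ± 1.64 CPM (−0.15, adjusted p = 0.0073). TRRAP, the scaffold of acetyltransferase complexes, falls (−0.14, adjusted p = 0.013, but 0.069 without shSTBD1 3). With gene-length trend offsets TRRAP has −0.081 and is not called (adjusted p = 0.073, and 0.068 with the replicate block). With effective-length offsets the CREBBP value is −0.035 (adjusted p = 0.92), whereas the EP300 value is −0.29 (adjusted p = 0.18).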

How the data were processed

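RNA of HCT116 cells is sequenced in 3 shControl and 3 shSTBD1 libraries, prepared with a NEBNext Ultra kit and read as paired ends. Alignment by the authors used STAR v2.7.1a against hg38, and RSEM v1.3.1 quantified Ensembl gene models, per the submitters' processing notes and methods. The deposited tables give, per gene and library, expected counts, TPM, the effective length in bases (unit: other) and RSEM's posterior SD of the count. Of the non-zero expected counts, 19.9 to 20.4% are not whole, because reads shared between genes are divided. For 8 of the 10 members the posterior SD is 0 in every library, and it is at most 0.875% of the count for the others. For STBD1 it reaches 10.5% of the count.

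Expected counts are rounded, filtered (filterByExpr, 15566 genes), scaled by TMM (factors 0.979 to 1.01) and tested with edgeR v4.0.16 (quasi-likelihood F-test, R v4.3.3). P values are adjusted by Benjamini-Hochberg over all tested genes and called under 0.05. DESeq2 v1.42.0, limma v3.58.1 on log2(TPM + 1) and log2(TPM + 0.1), other scalings, filters and offsets, the replicate block and leaving out each library make 20 alternatives. On simulated counts for this comparison over 15566 genes, the edgeR step recovered 83% of 100 genes changed by 1 and 58% of 100 changed by 0.3 on the log2 scale. A separate simulation in which no gene changed gave 0 calls. False calls in the simulation with changed genes are not given here. Gene positions come from GENCODE 44, and promoters from RefSeq. The members and lists were chosen with earlier results of these data known. Named genes are all members, STBD1, the pocket proteins and, from each other list, the 4 called genes with the largest change. A gene that this rule names is not reported here.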

Additional observations from a re-analysis of the deposited data

How the results depend on the processing

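In all 20 alternatives E2F1 keeps its positive and E2F3 its negative log2 fold change. E2F1 is called in 15 of 20 alternatives (adjusted p from 5.0e-05 to 0.22) and E2F3 in 10 of 20 (0.023 to 0.23). The cause of each lost call was not tested. For E2F1 the log2 fold change is 0.27 with effective-length offsets (adjusted p = 0.12) and 0.23 and 0.24 with limma on log2(TPM + 1) and log2(TPM + 0.1), with a range of 0.21 to 0.34 over the libraries left out in turn. For E2F3 it is −0.14 with DESeq2 and with effective-length offsets, −0.11 with gene-length trend offsets with or without the replicate block, −0.16 with both limma fits, and −0.17 to −0.12 over the libraries left out. The number of called members is 1 with DESeq2, with effective-length offsets (TFDP2, higher), and with gene-length trend offsets with or without the replicate block, 0 with both limma fits, and 0 (without shSTBD1 1) to 3 (without shControl 1) over the libraries left out. Of all tested genes, DESeq2 calls 10.9%, so 1 of 10 members is close to that share. Gene-length trend offsets call 15.5% of all tested genes, and 16.3% with the replicate block. The number of called genes in the 8 lists is 5 with effective-length offsets, 4 with each limma fit, and 13 to 24 over the libraries left out, where the shares over all tested genes are 3.28%, 1.88% and 1.86%, and 9.28 to 16.8%. Signs reverse for 6 genes, of which only TFDP2 is called after the reversal. With effective-length offsets, limma on log2(TPM + 1) and limma on log2(TPM + 0.1), the log2 fold changes are 0.11, 0.082 and 0.085 for E2F6, −0.013, −0.032 and −0.035 for E2F7, −0.022, −0.045 and −0.045 for TFDP1, 0.35, 0.32 and 0.33 for TFDP2, and −0.022, −0.037 and −0.042 for RBL1. PPP1R13B is −0.00272 and −0.00243 in the 2 limma fits. E2F6 is 0.0016 with library size in place of TMM and −0.045 to 0.032 over the libraries left out, and TFDP2 −0.041 to 0.010. Deviations from the group means correlate with r of 0.071, 0.068 and −0.0084 between libraries of the same replicate number, and −0.074 to 0.010 between different numbers. Not every library correlates best with its own number, and these values cannot decide whether the numbers pair the libraries. With the replicate block E2F1 is 0.27 (adjusted p = 0.00923), E2F3 is −0.14 (0.029) and 2 members are called. Other scalings move the median of all genes by at most 0.013. Among the 10 members, depth limits E2F5 most, where counting alone gives an error of 5.83%.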
